A study of Homo sapiens with 12 samples.

Results

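The plasminogen activator system was examined in SNU308, an established human gallbladder cancer cell line, through 8 of the 60617 genes in the files, and all 8 passed the expression filter that left 17620 genes. These genes were PLAT and PLAU (the plasminogen activators), PLAUR (the receptor of the PLAU product), SERPINB2 and SERPINE2 (inhibitors of the activators), and the related serpins SERPINB5, SERPINB6 and SERPINB8. The list was drawn up with results of these samples in view, and SERPINB2 entered it because its level was higher with both CEACAM6 siRNAs than in the controls. Its difference from the controls is therefore given as a description without a test.

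RNA-seq was available for 12 samples in 3 groups of 4 replicates, all of wild-type SNU308 cells taken 3 days after transfection with 25 nM siRNA. The groups had received a non-targeting control siRNA (NTC), siCEACAM6#2 or siCEACAM6#3, so that every group, the controls included, was transfected. The target, CEACAM6, codes for a cell surface adhesion protein that the study examined in gallbladder cancer. The labels give Oligofectamine as the transfection reagent and the study's methods give RNAiMAX. The labels do not say whether replicates were separate cultures, so the tests measure the spread between these samples, which may be technical. All samples came from a single cell line.

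Plasminogen is a circulating zymogen that tissue-type activator (PLAT) and urokinase (PLAU) cleave to plasmin, a protease that dissolves fibrin and degrades extracellular matrix. Urokinase acts largely at the cell surface, bound to its receptor PLAUR. Inhibitors such as SERPINE2 and SERPINB2 trap the activators in inactive complexes, and the balance of the system is known for its part in the migration and invasion of carcinoma cells. The clade B serpins, to which SERPINB2, SERPINB5, SERPINB6, SERPINB7 and SERPINB8 belong, are mostly held inside cells, and SERPINB5 (maspin) does not inhibit proteases.

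The total estimated count was 21799476 to 22059456 per sample. CEACAM6, the siRNA target, ranged from 524.1 to 618.6 CPM (the count scaled to library size) in the NTC samples. Its range was 285.8 to 353.1 CPM for siCEACAM6#2 and 386.5 to 438 CPM for siCEACAM6#3, without overlap between the groups. The 6 biliary epithelial markers (keratins, EPCAM and CDH1) were all above 1 TPM (a level scaled for transcript length and depth) in every group, summing to 7748 to 8817 TPM. Of 5 fibroblast and 4 endothelial markers, 1 each reached 1 TPM, and their summed levels were at most 4.748 and 2.918 TPM. Among the endothelial markers, VWF was called lower with siCEACAM6#2 (8.314 against 11.28 CPM in NTC, log2 fold change -0.44, limma-voom adjusted p 0.0419), and CDH5 was called between the siRNAs (1.875 CPM with siCEACAM6#3 against 0.752 CPM with siCEACAM6#2, 1.31, adjusted p 0.016). Of the 5 leukocyte markers, summing to 29.92 to 63.79 TPM, 1 reached a mean of 1 TPM in NTC and with siCEACAM6#2 and 2 with siCEACAM6#3. CD68, a lysosomal protein also made by other cells, was the one that did so in every group. The other with siCEACAM6#3, LYZ, did so through replicate 4 alone (3.278 TPM, against 0.2526, 0.7762 and 0.4274 in replicates 1 to 3). The mitochondrial share of counts ranged from 11.8% to 12.9% among NTC samples, from 12.2% to 13.3% among siCEACAM6#2 samples and from 12.5% to 15.3% among siCEACAM6#3 samples. The siCEACAM6#3 replicates differed most among themselves, with a chi-square of 8.37 to 23.7 per gene between pairs. Pairs of siCEACAM6#2 samples had 3.42 to 10.6, overlapping that range, and pairs of NTC samples had 2.72 to 6.51. Among NTC pairs, replicates 1 and 2 (3.3) and replicates 3 and 4 (2.72) were closest, against 4.75 to 6.51 for the other pairs. The part of these differences in the results below was not tested. In bulk RNA, fewer cells that express a gene and less RNA of it per cell cannot be told apart.

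The guide strands are shown because a guide can also act on other transcripts through its seed, the bases at positions 2 to 8 counted from the 5′ end, which are in capitals. Each was derived by complementing the target listed in the study's materials. The strand that the vendor supplies as guide is not given in the sources used here, so the seed matches rest on that derivation.
siCEACAM6#2: tTATTTGGcattgcatggctg
siCEACAM6#3: tACTAGTAtgactattaggag
The matching site of siCEACAM6#2, CCAAATA, stood in 15.6% of 13750 annotated 3′ UTRs, and that of siCEACAM6#3, TACTAGT, in 6.63%. Neither site was found in the 3′ UTR of any of the 8 genes. No match says only that these letters are not in the UTR of the canonical transcript.

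By position, 3 of the 8 genes are part of a cluster of clade B serpins on chromosome 18. In GRCh38, SERPINB5 (ENSG00000206075) spans 63476958 to 63505085, SERPINB2 (ENSG00000197632) 63871692 to 63903888 and SERPINB8 (ENSG00000166401) 63970029 to 64019779, all on the plus strand. SERPINB7 (ENSG00000166396), at 63752935 to 63805376, is in the same cluster. SERPINB6 (ENSG00000124570) is apart from it on chromosome 6, 2948159 to 2972165, on the minus strand. SERPINE2 (ENSG00000135919) is on chromosome 2, 223975045 to 224039318, and PLAUR (ENSG00000011422) on chromosome 19, 43646095 to 43670547, each on the minus strand. PLAU (ENSG00000122861) is on the plus strand of chromosome 10, 73909177 to 73917496.

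The promoter of SERPINB2 (RefSeq, GRCh38.p14, chr18:63887455-63887704, plus strand), the 250 bases before the start site, is shown because its gene stood highest among the 8 after both knockdowns. It holds a match to the AP-1 motif TGANTCA, in capitals, whose first base lies 102 bases before the start, and TATAAA 30 bases before it. This RefSeq start lies inside the gene span given above, and no window at 63871692, where that span begins, was searched.
SERPINB2: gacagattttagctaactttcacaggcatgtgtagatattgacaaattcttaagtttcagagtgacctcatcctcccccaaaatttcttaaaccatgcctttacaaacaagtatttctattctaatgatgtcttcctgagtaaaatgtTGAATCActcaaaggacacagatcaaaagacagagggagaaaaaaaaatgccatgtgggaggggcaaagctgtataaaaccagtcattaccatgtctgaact
The 7 genes whose promoters were searched on both strands had 12 such windows, of which 4 held TGANTCA, 1 window for each of 4 genes, against 6.57% of all 35116 promoter windows of the same length. TATAAA stood in 10.7% of them. The other matches, each within 27 bases, lay 186 bases before the start of PLAUR (chr19:43670339-43670365, minus strand), 146 before that of SERPINB5 (chr18:63476802-63476828, plus strand), and 185 and 28 before that of SERPINB8 (chr18:63969886-63969912 and chr18:63970043-63970069, plus strand).
PLAUR: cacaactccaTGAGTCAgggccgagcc
SERPINB5: aacttcagccTGAATCAtttctttcaa
SERPINB8, first: gagtcaaacgTGAATCAacggtgaaaa
SERPINB8, second: cgaacggttcTGAGTCAtctgccggaa
Promoter windows of SERPINE2, PLAU and SERPINB6 held no match, and PLAT was not searched. A match describes letters and is not evidence that a factor binds there.

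In NTC the 8 genes fell into 3 tiers of level per length. SERPINB5 was at 46.77 ± 0.841 TPM (SD, n = 4), PLAT at 45.77 ± 6.74, SERPINB6 at 43.21 ± 1.41 and SERPINB2 at 35.06 ± 7.08, and the sample ranges of neighbors in this order overlapped. PLAUR at 8.607 ± 1.39, SERPINE2 at 8.439 ± 1.13 and SERPINB8 at 7.277 ± 0.234 TPM formed a lower tier, also with overlapping ranges between neighbors. PLAU was lowest at 0.7378 ± 0.182 TPM, apart from all others. Of the 2 activators, PLAT thus held 98.39% ± 0.473 of the summed TPM in NTC, 98.31% ± 0.529 with siCEACAM6#2 and 98.2% ± 0.813 with siCEACAM6#3. Plasminogen itself (PLG) was at 0 to 0.1881 TPM in the 12 samples and did not pass the expression filter, nor did KLKB1, which codes for plasma prekallikrein.

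With siCEACAM6#2 the order changed at the top. SERPINB2 led at 59.99 ± 9 TPM, above the highest sample of SERPINB5, and PLAT, at 39.07 ± 2.32 TPM, came after SERPINB5 and SERPINB6. With siCEACAM6#3 SERPINB2 also had the highest mean, 58.25 ± 5.98 TPM, but its range overlapped that of PLAT, which was second at 48.26 ± 4.5 TPM. The lower 4 genes kept their order in all 3 groups.

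**Figure D1:**
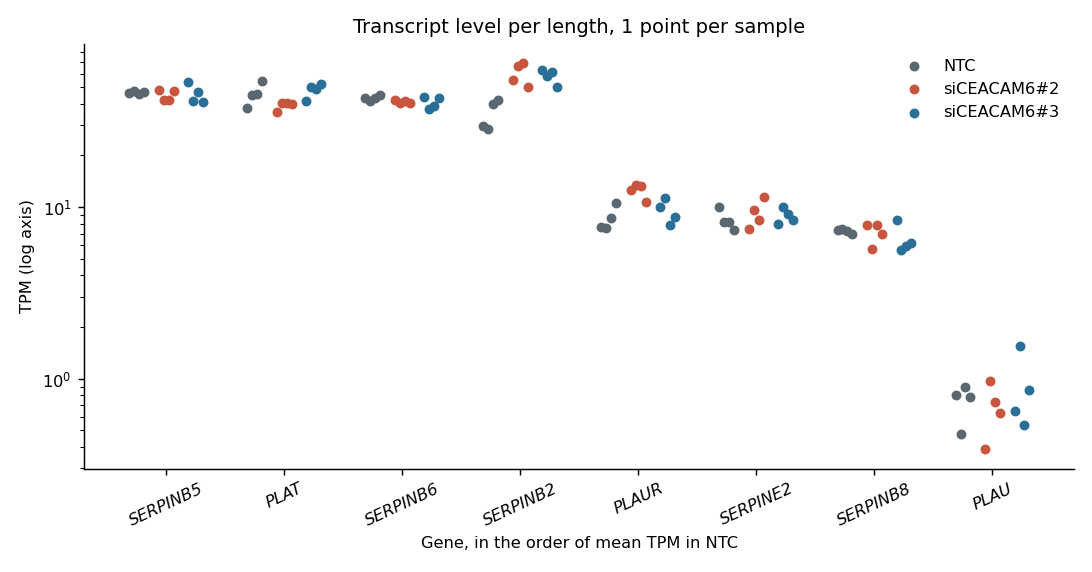
Transcript level of the 8 genes in TPM (log axis) in each of the 12 samples, in the order of the NTC means, with groups in color. SERPINB2 runs from 28.48 to 42.29 TPM in NTC and from 49.83 to 68.88 TPM in the siRNA samples, while PLAU is at most 1.544 TPM in any sample.

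SERPINB2, plasminogen activator inhibitor 2, was at 39.24, 38.1, 56.11 and 58.27 CPM in the NTC replicates. It was at 76.15, 94.05, 96.12 and 67.17 CPM with siCEACAM6#2 and at 85.97, 83.33, 86.38 and 72.71 CPM with siCEACAM6#3. Both groups of siRNA samples lay wholly above the NTC samples, and within NTC replicates 1 and 2 were lower than replicates 3 and 4. The log2 fold change was 0.81 (95% interval 0.52 to 1.10) with siCEACAM6#2 and 0.80 (0.51 to 1.09) with siCEACAM6#3. It ran from 0.70 to 0.91 over both siRNAs when samples were left out one at a time. These intervals and this range come from the samples on which SERPINB2 was chosen, so they are descriptions and not tests. All samples of both siRNA groups were above all NTC samples for 0.732% of the 17620 genes, a share from which nothing is read here since SERPINB2 was chosen for this pattern. Both fold changes share the same NTC samples. The difference between the siRNAs, also a description since the choice rested on both, was -0.01 on the log2 scale (95% interval -0.29 to 0.27), with overlapping samples. The means of SERPINB2 were 83.37 ± 14 and 82.1 ± 6.4 CPM (SD, n = 4), against 47.93 ± 10.7 CPM in NTC, while CEACAM6 was lower with siCEACAM6#2 than with siCEACAM6#3 (log2 difference 0.35, limma-voom Benjamini-Hochberg adjusted p 0.016).

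**Figure D2:**
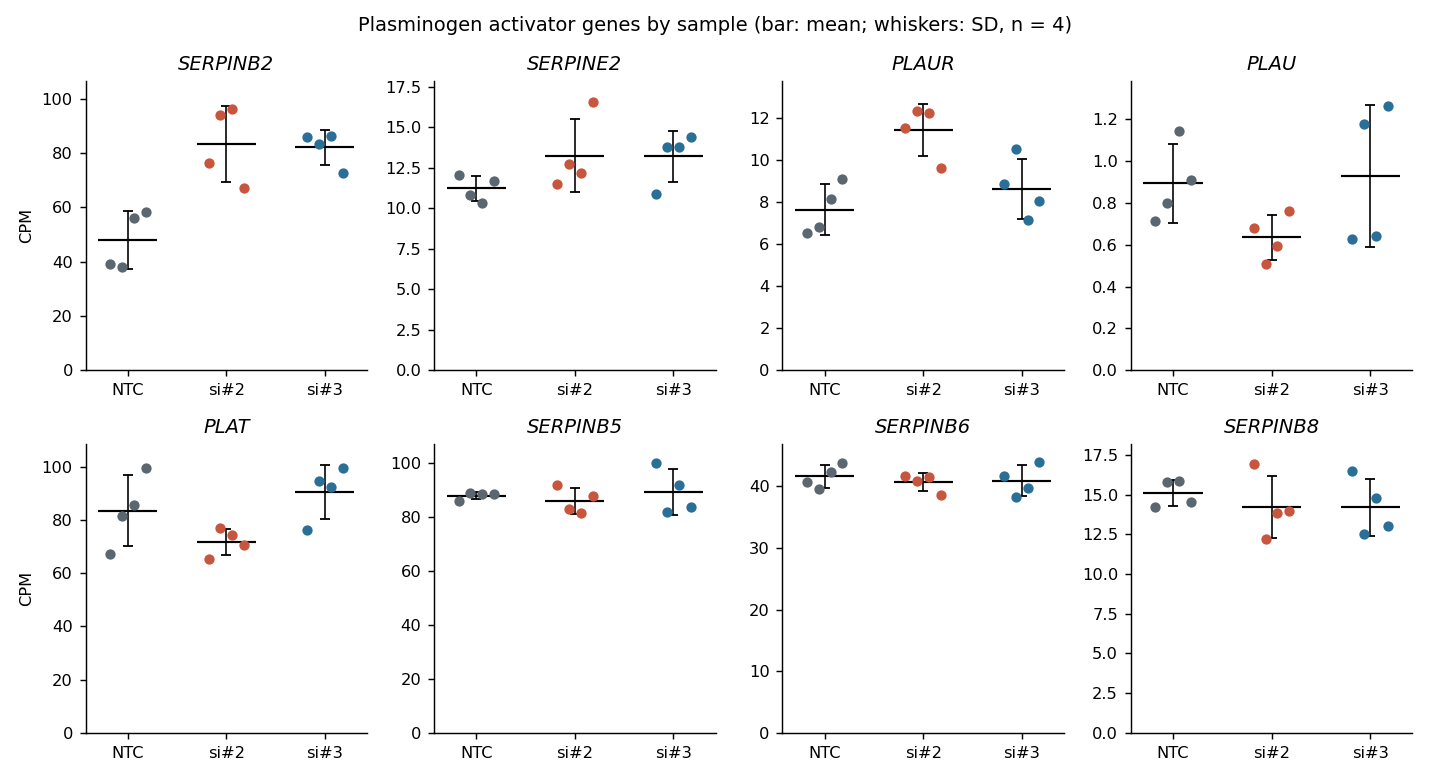
CPM of the 8 genes by group, 1 point per sample, with the mean (bar) and SD (whiskers) of 4 replicates; si#2 and si#3 stand for siCEACAM6#2 and siCEACAM6#3. SERPINB2 has no siRNA sample under 67.17 CPM and no NTC sample over 58.27 CPM, PLAUR is separated from NTC with si#2, and the groups overlap for the other 6 genes.

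Against NTC, siCEACAM6#2 changed 1 of the 7 tested members, PLAUR, where 1.25% of all 17620 genes were called. A gene was called at a limma-voom Benjamini-Hochberg adjusted p under 0.05. Of the 7, 2 had a positive and 5 a negative log2 fold change, with a median of -0.03 beside 0.00 over all tested genes. With siCEACAM6#3 none of the 7 was called (0 also by edgeR and DESeq2, 0 at an unadjusted p under 0.05), where 0.0681% of all genes were, and the median was 0.02 beside -0.00. In the average of both siRNAs none was called, by limma-voom, edgeR or DESeq2, beside 0.227% of all genes, while PLAUR and SERPINE2 had an unadjusted p under 0.05 (2 of 7), as did 12.9% of all genes.

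PLAUR, which anchors urokinase at the cell surface, was at 6.518, 6.81, 8.166 and 9.08 CPM in NTC. With siCEACAM6#2 it was at 11.51, 12.32, 12.22 and 9.628 CPM, and with siCEACAM6#3 at 8.835, 10.5, 7.149 and 8.053 CPM. All siCEACAM6#2 samples were above the highest NTC sample, as for 5.34% of all tested genes, while the siCEACAM6#3 samples overlapped NTC. PLAUR rose by 0.58 on the log2 scale with siCEACAM6#2 (SE 0.13, 95% interval 0.31 to 0.86, adjusted p 0.0368). With siCEACAM6#3 its log2 fold change was 0.17 (-0.11 to 0.46, adjusted p 0.621). The difference between the siRNAs, -0.41 (-0.68 to -0.14), had an unadjusted p of 0.00507 and an adjusted p of 0.134, so the 2 responses of PLAUR were not shown to differ. Leaving out NTC replicate 1, 2 or 3 or siCEACAM6#2 replicate 2 or 3 (5 of 12 fits) ended the PLAUR call, at log2 fold changes of 0.52 to 0.62. It was also lost without the expression filter (adjusted p 0.0647) and on log2(TPM + 1) (0.49, adjusted p 0.149).

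PLAT (ENSG00000104368, chromosome 8, 42174718 to 42207709, minus strand), the more abundant activator, was at 67.37, 81.59, 85.47 and 99.61 CPM in NTC. It was at 65.23, 76.88, 74.28 and 70.62 CPM with siCEACAM6#2, each under the NTC mean of 83.51 CPM, and at 76.15, 94.58, 92.43 and 99.44 CPM with siCEACAM6#3. All 3 groups overlapped. Its log2 fold change was -0.21 (-0.42 to 0.01, adjusted p 0.392) with siCEACAM6#2 and 0.12 (-0.09 to 0.34, adjusted p 0.638) with siCEACAM6#3. The direct difference, siCEACAM6#3 versus siCEACAM6#2, was 0.33 (0.12 to 0.55, unadjusted p 0.00489, adjusted p 0.131).

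PLAU, which codes for urokinase, had only 11 to 27 estimated counts per library. It ranged from 0.7143 to 1.147 CPM in NTC, from 0.5076 to 0.7613 CPM after siCEACAM6#2 and from 0.6279 to 1.264 CPM after siCEACAM6#3. Its log2 fold changes of -0.47 (-1.07 to 0.13) and -0.00 (-0.56 to 0.56) had adjusted p of 0.512 and 0.999. These were the widest intervals among the 8 genes.

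SERPINE2, protease nexin 1, which inhibits thrombin as well as both activators, was at 12.05, 10.82, 10.32 and 11.68 CPM in NTC. It was at 11.51, 12.74, 12.17 and 16.52 CPM with siCEACAM6#2 and at 10.9, 13.75, 13.79 and 14.37 CPM with siCEACAM6#3. The groups overlapped, and siCEACAM6#2 replicate 4 was the highest sample. The log2 fold change was 0.23 (-0.02 to 0.47) with each siRNA (adjusted p 0.412 and 0.435), and 0.23 in the average (unadjusted p 0.0393, adjusted p 0.359). On log2(TPM + 1) the values with siCEACAM6#2 and siCEACAM6#3 were 0.11 and 0.07.

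The 3 other clade B serpins stood close to their control levels. SERPINB5 was at 85.98 to 88.89 CPM in NTC, 81.39 to 91.87 CPM with siCEACAM6#2 and 81.78 to 100.2 CPM with siCEACAM6#3, with log2 fold changes of -0.03 (-0.17 to 0.10) and 0.02 (-0.12 to 0.15). SERPINB6, an inhibitor of cathepsin G and trypsin-like proteases, was at 39.62 to 43.76, 38.51 to 41.63 and 38.28 to 43.96 CPM in the same order, with -0.03 (-0.16 to 0.09) and -0.02 (-0.15 to 0.10). SERPINB8, an inhibitor of furin, was at 14.24 to 15.83, 12.23 to 16.94 and 12.52 to 16.46 CPM, with -0.09 (-0.31 to 0.13) and -0.09 (-0.31 to 0.12). The lowest adjusted p among these 6 tests was 0.75. SERPINB5 and SERPINB8 lie on either side of SERPINB2 in the cluster, with other clade B serpins in between. Both also hold TGANTCA in their promoter windows. Any link of position or motif to these levels was not tested.

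**Figure D3:**
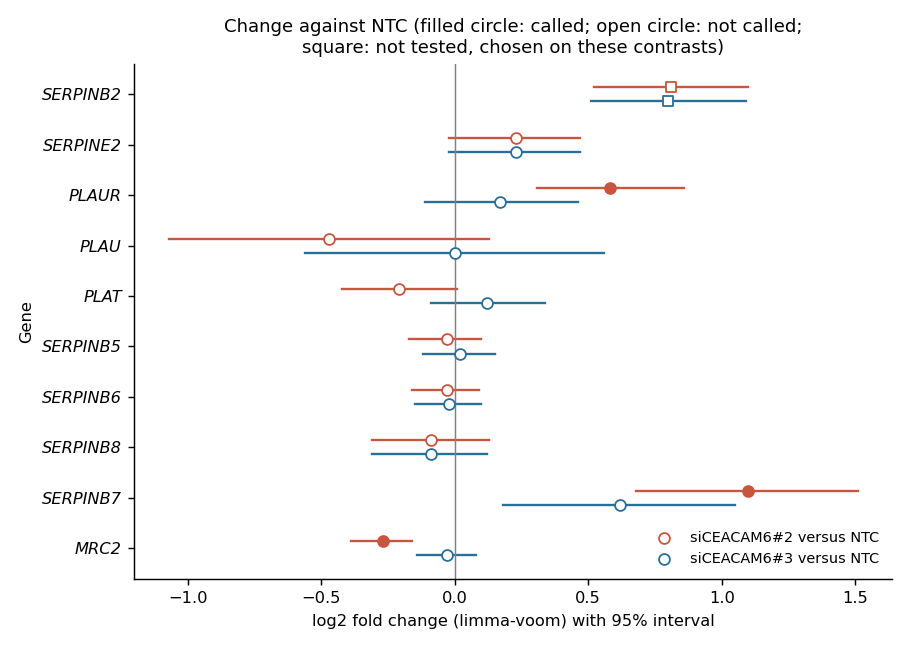
Log2 fold change against NTC with its 95% interval (limma-voom) for the 8 genes and for SERPINB7 and MRC2, with both siRNAs in color. Filled circles (PLAUR, SERPINB7 and MRC2 with siCEACAM6#2) were called, open circles were not, and squares mark SERPINB2, which was not tested against NTC. The intervals of SERPINB2 are descriptions, since it was chosen on these contrasts.

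Between the siRNAs, limma-voom and edgeR called none of the 7 members other than SERPINB2 in siCEACAM6#3 versus siCEACAM6#2, where 1.47% of all genes were called in limma-voom. PLAUR and PLAT had an unadjusted p under 0.05 (2 of 7, beside 13.3% of all genes), in opposite directions. PLAT was called by DESeq2 (0.34, adjusted p 0.0454) and in limma-voom without siCEACAM6#3 replicate 1 (0.42, adjusted p 0.0241). With sample quality weights PLAUR was called at -0.50 (adjusted p 0.0488). For the other 5 the difference had an adjusted p of at least 0.522, and its 95% interval stayed within -0.24 to 0.24 except for PLAU (-0.14 to 1.07).

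Summed over SERPINB2 and SERPINE2, the 2 members that inhibit the activators, transcript levels stood at 43.5 ± 6.39 TPM in NTC, 69.23 ± 8.46 TPM with siCEACAM6#2 and 67.15 ± 6.03 TPM with siCEACAM6#3 (SD, n = 4). SERPINB2 made up 80.12% ± 4.82, 86.46% ± 3.51 and 86.68% ± 1.66 of these sums. Set against the summed TPM of PLAT and PLAU, the ratio of inhibitor to activator transcript was 0.9401 ± 0.11 in NTC (0.8011 to 1.031), 1.741 ± 0.166 with siCEACAM6#2 (1.511 to 1.886) and 1.382 ± 0.24 with siCEACAM6#3 (1.106 to 1.682). Both siRNA groups lay above the NTC samples and overlapped each other. SERPINB2, which was chosen on these samples, carries most of this sum, so the ratio is a description and was not tested, and it says nothing of protein or activity.

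Of the other inhibitors of plasminogen activators, SERPINI1 (neuroserpin, an inhibitor of PLAT) had a log2 fold change of 0.34 with siCEACAM6#2 (0.14 to 0.54, adjusted p 0.0964) and of 0.15 with siCEACAM6#3 (adjusted p 0.536). SERPINA5 did not pass the expression filter. These 2 genes lie outside the naming rule and were chosen after their values were seen, as inhibitors of the same targets.

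Beyond the 8 members, lists of the wider system held 38 genes, of which 27 were tested. With siCEACAM6#2, 1 of these 27 was called higher and 1 lower, where 0.613% and 0.641% of all genes were called. An unadjusted p under 0.05 was reached by 10 of them, beside 13.6% of all genes. With siCEACAM6#3 and in the average limma-voom called none (9 and 8 at an unadjusted p under 0.05, beside 12.5% and 12.9% of all genes, with 0 and 1 called by edgeR and 1 and 1 by DESeq2). Between the siRNAs 1 of the 27 was called, beside 1.47% of all genes, and 9 had an unadjusted p under 0.05, beside 13.3%. The medians of the 27 log2 fold changes were 0.03 with siCEACAM6#2 and 0.07 with siCEACAM6#3.

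The gene that rose with siCEACAM6#2 was SERPINB7, a clade B serpin of epithelia, at 2.768, 2.804, 3.349 and 3.924 CPM in NTC. It was at 5.572, 6.784, 9.621 and 5.956 CPM with siCEACAM6#2 and at 4.35, 6.591, 4.995 and 3.98 CPM with siCEACAM6#3. Every siRNA sample was above every NTC sample in CPM, as for 0.732% of all tested genes, with siCEACAM6#3 replicate 4 just above the highest of them. In TPM that replicate, at 2.682, was below NTC replicate 2, at 3.069. The log2 fold change was 1.10 with siCEACAM6#2 (0.68 to 1.51, adjusted p 0.0121) and 0.62 with siCEACAM6#3 (0.18 to 1.05, adjusted p 0.245). In the average it was 0.86, with an adjusted p of 0.0592 in limma-voom, 0.0396 in edgeR and 0.000494 in DESeq2. The siCEACAM6#2 call was lost without NTC replicate 1 (1.03, adjusted p 0.0573) or replicate 2 (1.04, adjusted p 0.056) and on log2(TPM + 1) (0.79, adjusted p 0.113). The difference between the siRNAs, -0.48, was not called (adjusted p 0.232). Of the 3 promoter windows of SERPINB7, 2 held TGANTCA, at 154 and 39 bases before one start site and at 206 and 45 before another.

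MRC2 (ENSG00000011028, chromosome 17, 62627670 to 62693597, plus strand), which codes for an endocytic collagen receptor that associates with the urokinase receptor, was the gene that fell. It was at 37.5, 37.26, 37.8 and 37.42 CPM in NTC, 30.85, 30.41, 30.37 and 32.69 CPM with siCEACAM6#2 and 35.74, 37.85, 34.92 and 38.72 CPM with siCEACAM6#3. In CPM the siCEACAM6#2 samples lay below all others, and the siCEACAM6#3 samples overlapped NTC. For 5.42% of genes the siCEACAM6#2 samples were all below NTC, and for 3.34% the siCEACAM6#3 samples were all above siCEACAM6#2. In TPM the MRC2 groups overlapped, with siCEACAM6#2 replicate 4 at 13.5, NTC replicate 3 at 12.42 and siCEACAM6#3 replicate 3 at 11.01. MRC2 fell by 0.27 on the log2 scale with siCEACAM6#2 (-0.39 to -0.16, adjusted p 0.0235), and it was higher with siCEACAM6#3 than with siCEACAM6#2 by 0.24 (0.13 to 0.36, adjusted p 0.0349). Leaving out a sample ended the siCEACAM6#2 call in 6 of 12 fits (any NTC replicate or siCEACAM6#2 replicate 2 or 3) and the direct call in 11 of 12 (all but siCEACAM6#3 replicate 1), at 0.22 to 0.27. The siCEACAM6#2 call was also lost without the expression filter (adjusted p 0.0639) and on log2(TPM + 1) (-0.26, adjusted p 0.46). The direct call was lost with scaling by library size alone (0.22, adjusted p 0.0617), without the filter (adjusted p 0.0956) and on log2(TPM + 1) (0.12, adjusted p 0.774).

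In the other lists limma-voom on all samples called no gene with either siRNA. For siCEACAM6#3, F3 and TFPI2 came closest, and they are named after their values were seen. F3, tissue factor, which starts coagulation, was at 128.5, 139.7, 151.9 and 159.6 CPM in NTC and at 170.6, 295.2, 217.4 and 192.1 CPM with siCEACAM6#3, with a log2 fold change of 0.57 (0.26 to 0.88, adjusted p 0.148). TFPI2, a Kunitz-type inhibitor of plasmin and other proteases, was at 7.545, 6.988, 9.542 and 9.673 CPM in NTC and at 11.8, 13.65, 13.15 and 10.11 CPM with siCEACAM6#3, with 0.54 (0.29 to 0.78, adjusted p 0.109). In CPM all siCEACAM6#3 samples of both genes were above NTC, as for 2.99% of all tested genes. In TPM, siCEACAM6#3 replicate 3 and NTC replicate 3 were both at 14.93 for TFPI2. With siCEACAM6#2 the log2 fold changes were 0.26 for F3 (adjusted p 0.486) and 0.08 for TFPI2 (adjusted p 0.835), and both genes overlapped NTC. DESeq2 called TFPI2, the replicate block called F3, and sample quality weights called both and ENO1. Among activators and zymogens, F12 (coagulation factor XII) was at 39.61 TPM over all samples, with log2 fold changes of -0.04 and -0.09. In the list labeled plasmin inhibitors, 4 genes that do not include TFPI2, only SERPING1 was tested (1.71 TPM, 0.06 and 0.12). CPB2, also in that list, instead removes the lysines that plasminogen binds on fibrin, and was at 0.1858 TPM. The membrane protease inhibitors SPINT2 and SPINT1 were the most abundant of their list, at 569.8 and 159.5 TPM, with log2 fold changes of -0.01 and 0.06 for SPINT2 and of 0.03 and 0.20 for SPINT1. The plasminogen-binding proteins other than PLAUR had log2 fold changes between -0.19 and 0.16, none called.

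**Figure D4:**
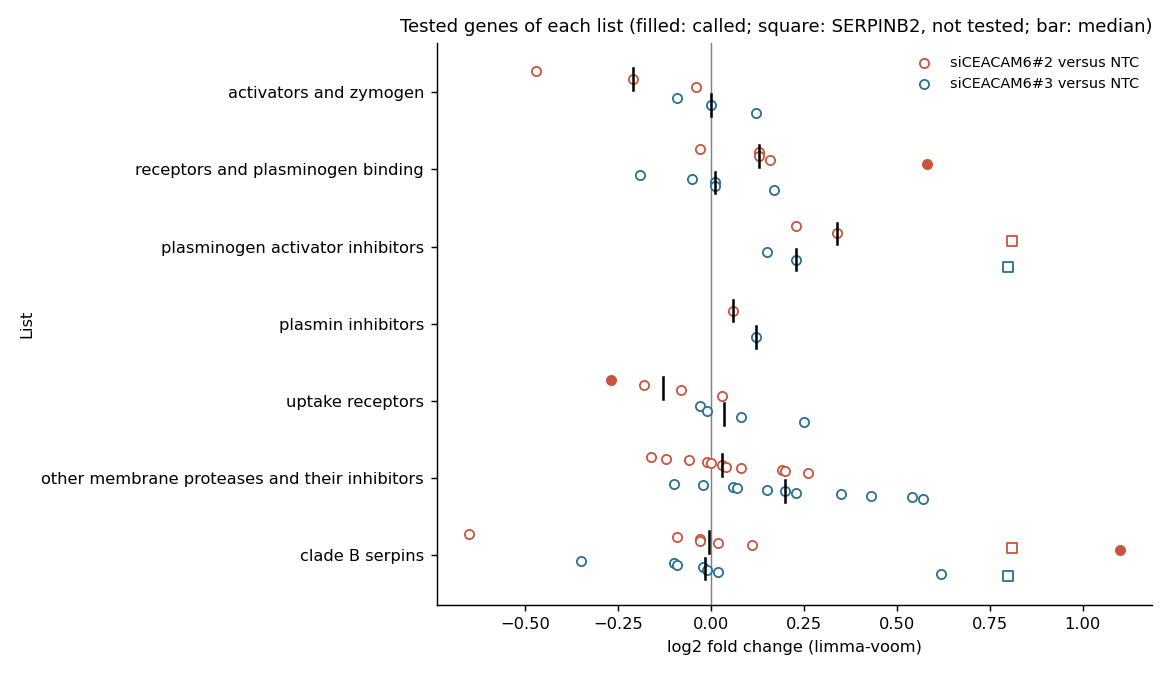
Log2 fold change against NTC (limma-voom) of the tested genes reported here in 7 lists of the plasminogen system, by siRNA in color, with the median of the genes shown for each list as a bar. PLAUR, MRC2 and SERPINB7 with siCEACAM6#2 are the filled, called points, and squares mark SERPINB2, which was not tested.

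The genes most like SERPINB2 were sought by Pearson's r of log2 CPM over the 12 samples, among 15018 genes with a mean of at least 1 CPM (median r -0.01). Among the 5 with the highest r were FST (0.967), AREG (0.945), NFE2L1 (0.936) and TNFRSF12A (0.930). After subtraction of each group's mean, r was 0.86, 0.97, 0.81 and 0.82. Follistatin (FST), a binder of activins, averaged 88.55 ± 16.8 CPM for NTC, 142.4 ± 17.8 for siCEACAM6#2 and 145.1 ± 8.53 for siCEACAM6#3 (SD, n = 4). AREG, amphiregulin, a ligand of the EGF receptor, was at 39.15 ± 5.92, 67.88 ± 8.65 and 55.69 ± 5.38 CPM. NFE2L1, a transcription factor, was at 189.8 ± 6.75, 210 ± 7.06 and 205.5 ± 5.22 CPM. TNFRSF12A, the TWEAK receptor, was at 145.2 ± 13.1, 181.7 ± 8.08 and 170.5 ± 4.64 CPM. In log2 CPM, NFE2L1 and TNFRSF12A varied over a narrower range than FST and AREG. As for SERPINB2, the NTC replicates 3 and 4 were above replicates 1 and 2 for each of these 4 genes. These genes were chosen for their r with SERPINB2 over the same samples, so a shared order of samples partly follows from the choice. The points share libraries, groups and depth, and the correlations are descriptions without a test.

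**Figure D5:**
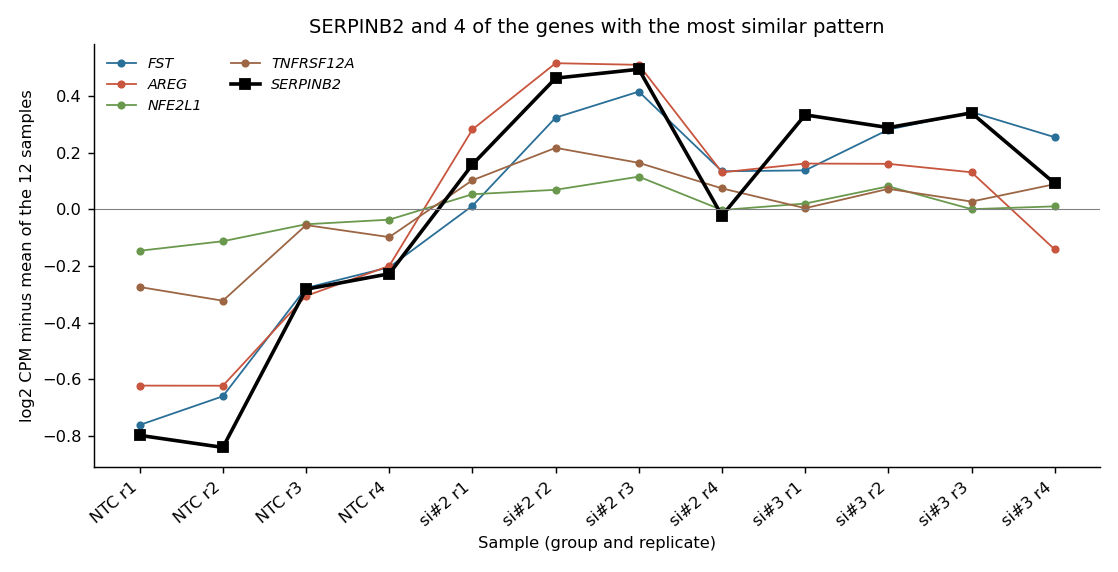
Log2 CPM minus its mean over the 12 samples for SERPINB2 (black squares) and 4 of the genes with the highest Pearson's r with it, by sample. All of them are lower in NTC replicates 1 and 2 than in replicates 3 and 4, and r with SERPINB2, on which they were chosen, is 0.930 to 0.967.

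Among the other members, PLAUR was most like SERPINB2, with r = 0.72 over the 12 samples and 0.71 after the group means were subtracted, and 98% of the genes compared had a lower r. SERPINE2 had r = 0.33 over all samples and -0.42 within groups. PLAT (0.09), SERPINB6 (0.01), SERPINB5 (-0.07), PLAU (-0.28) and SERPINB8 (-0.31) showed weak or negative values over all samples. SERPINB5 and SERPINB8, from the same gene cluster as SERPINB2, had r of -0.05 and -0.10 after the group means were subtracted, and PLAT, SERPINB6 and PLAU had 0.50, 0.43 and -0.10.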

How the data were processed

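The authors' methods name trim_galore 0.6.4 for trimming and kallisto for quantification on GENCODE transcripts (GRCh38.p13). They deposited estimated counts and TPM per gene, 1 file each per sample. Read layout differs between the labels (paired, strand-specific) and the methods (single-end). Kallisto divides shared reads by estimation, so near-identical genes such as SERPINB3 and SERPINB4 are uncertain. Of the Ensembl identifiers, 60357 of 60617 matched a name.

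Estimated counts were rounded and fitted in limma 3.58.1 (voom) and edgeR 4.0.16 in R 4.3.3, with filterByExpr, TMM scaling (factors 0.975 to 1.02) and 1 mean per group. Calls needed a Benjamini-Hochberg adjusted p under 0.05 over all 17620 genes. CPM used TMM-scaled library sizes. Log2(TPM + 1) fits used a pseudocount of 1. The alternatives were edgeR quasi-likelihood, DESeq2 1.42.0, library size scaling, no filter, limma-trend on TPM, sample weights, a replicate block and 12 fits each without 1 sample. The fit was tested on simulated data.

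Members and lists were chosen with earlier results of these data known. Besides the 8 members, the rule named genes of each list called in any contrast, or else its 2 most abundant, CEACAM6, and the 5 genes most correlated with SERPINB2. Some genes that met this rule or were in a list are not reported here. Promoters are from RefSeq, and coordinates and UTRs from GENCODE release 44 (GRCh38).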

Additional observations from a re-analysis of the deposited data

Results flagged for a closer look

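SERPINB5 in NTC replicate 1 stood apart from its group, at 85.98 CPM against 88.52 to 88.89 CPM in the other 3 samples. The 11 genes with per-sample values in the main comparisons gave 33 groups of 4, and chance flags about 1 in 20 such groups.

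The effect of the siRNAs differed between siCEACAM6#3 and siCEACAM6#2 by the test of the difference itself for MRC2, by 0.24 in log2 units (adjusted p 0.0349 in limma-voom). That call was lost in 11 of 12 fits without 1 sample, with library size scaling (adjusted p 0.0617), without the expression filter (0.0956) and on log2(TPM + 1) (0.774). The target, CEACAM6, also differed between the siRNAs, by 0.35 in log2 units (adjusted p 0.016 in limma-voom). How that call depends on the other settings is not given here.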

How the results depend on the processing

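PLAUR with siCEACAM6#2 was the only call among the 7 tested members, and it was lost (0 called) without the expression filter and on log2(TPM + 1). Leaving out 1 sample gave 0 to 1. The siCEACAM6#3 and averaged comparisons had 0 called members in all 7 other settings and all 12 fits without 1 sample. Between the siRNAs, DESeq2 and the replicate block each called 1 (PLAT) and sample weights called 1 (PLAUR), and leaving out 1 sample gave 0 to 1. Of the 27 genes of the wider lists, sample weights called 4 for siCEACAM6#2 (among them SERPINB7, MRC2 and SERPINI1), 3 for siCEACAM6#3, 6 for the average and 3 for the direct comparison. DESeq2 called 1 for siCEACAM6#3, 1 for the average and 5 for the direct comparison, edgeR 1 in the average, the fit without a filter 1 with siCEACAM6#2, and the fit of log2(TPM + 1) 0 with siCEACAM6#2 and 0 between the siRNAs. With library size scaling and without a filter the gene called between the siRNAs was S100A10 in place of MRC2. Leaving out 1 sample gave 0 to 2 for each siRNA, 0 to 1 for the average and 0 to 5 for the direct comparison.

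Over all genes, in the order siCEACAM6#2, siCEACAM6#3, average and direct comparison, the numbers called were 221, 12, 40 and 259. DESeq2 gave 474, 155, 295 and 516, sample weights 1120, 382, 899 and 560, log2(TPM + 1) 5, 4, 2 and 49, and the fit without a filter 24 for siCEACAM6#3. Leaving out 1 sample gave 49 (siCEACAM6#2 replicate 3) to 371 (siCEACAM6#3 replicate 4), 2 (siCEACAM6#3 replicate 3) to 264 (siCEACAM6#3 replicate 1), 3 (NTC replicate 2) to 222 (siCEACAM6#2 replicate 1), and 87 (siCEACAM6#2 replicate 3) to 649 (siCEACAM6#3 replicate 1). The cause was not tested. The CEACAM6 log2 fold change with siCEACAM6#3 ran from -0.50 to -0.43 and lost its call without NTC replicate 2 or 4 or siCEACAM6#3 replicate 3.

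Replicate numbers are shared between groups. Samples of the same number were weakly correlated after subtraction of group means, with 2 of 12 pairs above 0.1 (r from -0.0602 to 0.224). Of the 12 samples, 4 correlated best with their own number. These correlations cannot decide whether the numbers mark paired samples. In the order above, the replicate block called 284, 87, 118 and 349 genes, against 221, 12, 40 and 259 without it. Among the wider lists the replicate block called 1 with siCEACAM6#3 (F3), 2 in the average (F3 and SERPINB7) and 3 in the direct comparison, and it called PLAT between the siRNAs at 0.33 (adjusted p 0.0189). At the depth of these libraries, PLAU is the member whose counts limit precision most.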
